A study of Mus musculus with 4 samples.

Results

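The 10 genes described here encode proteins that end the light response of photoreceptors and reset their calcium: the retinal guanylate cyclases Gucy2e and Gucy2f and their activators Guca1a and Guca1b, recoverin (Rcvrn), the photoreceptor kinase Grk1, Rgs9 and its membrane anchor Rgs9bp, and the sodium-calcium-potassium exchangers Slc24a1 and Slc24a2. They were chosen by symbol for this function, with earlier results of these data known. All 10 were found among the 22558 symbols of the deposited tables, at 1 FPKM or more in every library. FPKM counts fragments per unit of transcript length and of sequencing depth. The 4 libraries came from whole mouse retina, 1 each of Fezf2KO animals at postnatal day 14 (P14), control littermates at P14, Fezf2KO animals at postnatal day 7 (P7) and control littermates at P7. The littermates are labelled wildtype and all animals carry the background C57/BL/6J; the design of the knockout allele and the number of animals behind a library were not stated. Fezf2 encodes a zinc-finger transcription factor, and the comparisons ask how the retina differs without it at each age. No group had a replicate, so a difference between the genotypes at 1 age has no replicate check.

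In a photoreceptor at rest, cyclic GMP holds channels open and calcium flows in, while exchangers of the Slc24a family carry it out again. Light lowers cyclic GMP, the channels close, calcium falls, and the activator proteins then switch on the guanylate cyclases, which restores cyclic GMP. Falling calcium also frees the kinase Grk1 from recoverin, so that active visual pigment is phosphorylated and shut off, and the Rgs9 complex ends the activity of transducin. Mouse photoreceptors build their outer segments, where most of this machinery sits, during the postnatal weeks sampled here.

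The windows before the start of both cyclase genes and of Guca1a are shown because they alone among the windows at hand hold the letters recognised by homeobox factors of the CRX type. RefSeq windows were at hand for 7 of the 10 genes, with 2 for Slc24a2 (build GRCm38.p6, 250 bases before the start, read 5′ to 3′ on the strand of the gene). Capitals mark TAATCC or its reverse complement GGATTA.
Gucy2e, chr11:69237023-69237272, minus strand: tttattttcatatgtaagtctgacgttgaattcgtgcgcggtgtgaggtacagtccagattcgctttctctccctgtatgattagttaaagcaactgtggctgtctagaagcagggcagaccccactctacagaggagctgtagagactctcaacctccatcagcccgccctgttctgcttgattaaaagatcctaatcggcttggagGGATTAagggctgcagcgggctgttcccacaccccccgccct
Gucy2f, chrX:142196937-142197186, minus strand: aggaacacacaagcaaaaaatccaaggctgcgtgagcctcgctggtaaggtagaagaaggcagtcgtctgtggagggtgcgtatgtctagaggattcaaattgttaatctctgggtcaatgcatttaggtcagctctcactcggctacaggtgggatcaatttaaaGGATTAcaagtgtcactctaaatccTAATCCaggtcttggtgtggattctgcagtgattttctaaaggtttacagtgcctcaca
Guca1a, chr17:47400607-47400856, minus strand: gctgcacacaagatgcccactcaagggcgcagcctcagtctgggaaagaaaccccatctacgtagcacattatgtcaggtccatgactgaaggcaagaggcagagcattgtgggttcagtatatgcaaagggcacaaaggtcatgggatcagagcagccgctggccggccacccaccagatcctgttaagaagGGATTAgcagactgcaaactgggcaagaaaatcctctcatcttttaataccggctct

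The CRX-type letters began 42 bases before the start of Gucy2e, 57 before that of Guca1a, and 84 and 59 before that of Gucy2f. The start of Guca1a is that of RefSeq alone, since the bases after it were not found in a GENCODE M21 transcript of the gene. They occurred in 6.25% of all 32851 windows of the same length. The letters TGCTGA or TCAGCA, of the NRL type, occurred in 16.1% of all windows and, among the genes described here, in that of Rgs9, 147 bases before its start. Neither motif was found in the windows of Grk1, Slc24a1 and Slc24a2, although Slc24a1 rose more with age than the 3 genes shown. The windows of Rgs9 and Slc24a1 and 1 window of Slc24a2 also rest on RefSeq alone. The window length was set after these matches were seen. A match describes letters and not binding, and no match says only that these letters are not in the window.

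Each deposited level has a lower and an upper bound, which cover counting error within a library and not differences between animals or dissections. A difference counts as beyond counting error if both bounds of 1 library lay above both bounds of the other. The widths of the bounds implied about 12456200 fragments for KO P14, 9303590 for control P14, 11616400 for KO P7 and 11911300 for control P7. Fezf2 itself was at 0.126 (KO) and 4.02 FPKM (control) at P14, and at 0.592 (KO) and 8.32 FPKM (control) at P7, in the direction of the labels. The rod marker Sag lay between 1045 and 2592 FPKM. Other tissues and cell types also differed between the libraries. At P14 all 3 erythroid genes (summed level 307 FPKM in KO, 962 FPKM in control) and all 4 tested of 5 pigment epithelium genes (98.5 FPKM in KO, 141 FPKM in control) were lower in the KO retina beyond counting error. The sum of 4 lens genes was 2.39 (KO) and 7.62 FPKM (control) at P14, and 7.82 (KO) and 1.91 FPKM (control) at P7. At P14, 4 of 4 ganglion cell markers were higher in KO, and 4 of 6 bipolar and 1 of 3 tested amacrine cell markers lower. At P7, 3 of 4 ganglion cell markers were higher and 2 of 3 tested amacrine cell markers lower, with 2 bipolar cell markers in each direction. The part of these tissues and cells in the differences below was not tested.

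All 10 genes rose with age in both genotypes, by very different amounts. The largest change was that of Guca1b, and the smallest that of Rgs9. The summed level of the 10 genes was 4001 (KO) and 3680 FPKM (control) at P14, against 461 (KO) and 481 FPKM (control) at P7. Their share of all FPKM was 0.957% (KO) and 0.903% (control) at P14, against 0.117% (KO) and 0.124% (control) at P7. In a whole retina, more photoreceptors and more RNA per photoreceptor cannot be told apart.

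**Figure D1:**
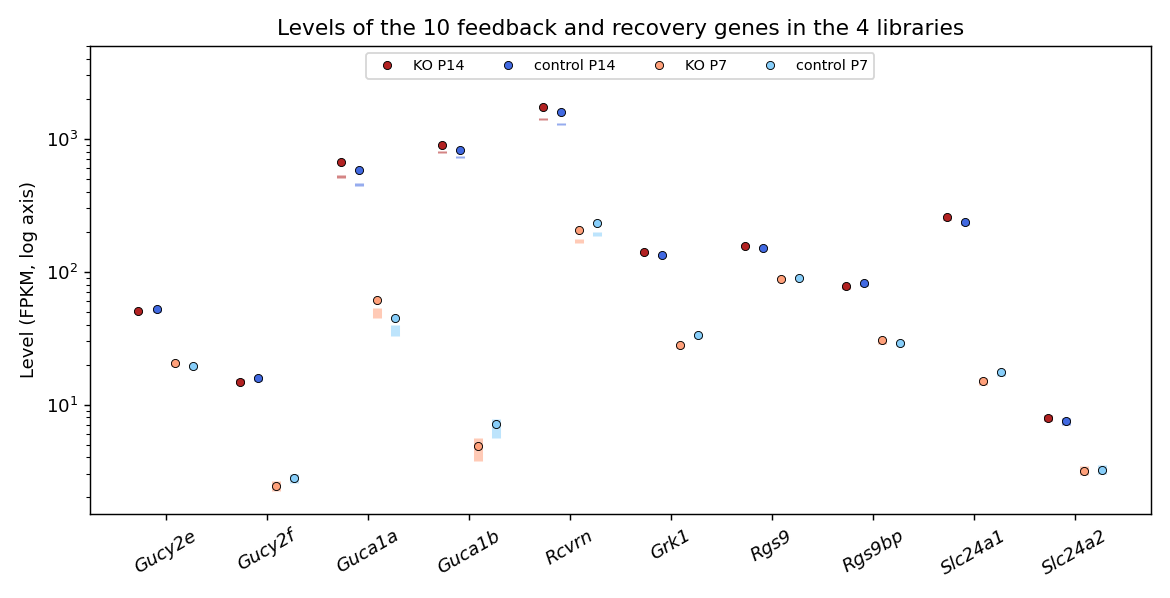
Level of each of the 10 genes (FPKM, log axis) in the 4 libraries; points are the deposited levels and shaded bars run from the lower to the upper bound. Every gene was higher at P14 than at P7, and Guca1b, second highest at P14, was among the lowest at P7, at 4.90 (KO) and 7.09 FPKM (control). For Rcvrn and Guca1a the point lies above the bar in every library, because the deposited level exceeds its own upper bound.

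The cyclases, which make cyclic GMP, were moderate in level. Gucy2e, on chromosome 11 at bases 69031619 to 69050524 (mm9, the build of the files), was at 50.9 (KO) and 52.1 FPKM (control) at P14, against 20.4 (KO) and 19.6 FPKM (control) at P7. Gucy2f, on chromosome X at 138513832 to 138631479, was at 14.9 (KO) and 15.8 FPKM (control) at P14, against 2.44 (KO) and 2.78 FPKM (control) at P7. Both genes were higher at P14 than at P7 in either genotype. The increase of Gucy2f was 6.10-fold in the KO and 5.69-fold in the control retina, and that of Gucy2e 2.50-fold and 2.66-fold. The ratio of Gucy2e to Gucy2f, both per length, was 3.42 (KO) and 3.29 (control) at P14, against 8.35 (KO) and 7.04 (control) at P7. This and the other ratios of paired genes were chosen after the values were seen.

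The cyclase activators changed order. Guca1a, on chromosome 17 at 47531507 to 47537533, was at 667 (KO) and 582 FPKM (control) at P14, against 61.7 (KO) and 45.2 FPKM (control) at P7. Guca1b lies next to it, at 47522342 to 47529916, with 1590 bases between the loci. Its level was 899 (KO) and 820 FPKM (control) at P14, against 4.90 (KO) and 7.09 FPKM (control) at P7. By level Guca1b ranked 26th in the KO and 27th in the control library at P14, but only 9146th and 8079th at P7. The increase was 184-fold in the KO and 116-fold in the control retina for Guca1b, and 10.8-fold and 12.9-fold for Guca1a. The log2 change of Guca1b lay at percentile 99.99 of all tested genes in both genotypes.

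Guca1a thus exceeded Guca1b at P7 and lay below it at P14. The ratio of Guca1a to Guca1b was 0.742 (KO) and 0.710 (control) at P14, against 12.6 (KO) and 6.37 (control) at P7. At P7 the ratio taken at the bounds ran from 8.03 to 14.2 in the KO and from 4.22 to 7.08 in the control library, without overlap. GENCODE M21 places Guca1a on the minus and Guca1b on the plus strand, so that their 3′ ends face each other. The protocol names no step that marks strand, so reads past either end could not be assigned by strand.

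**Figure D2:**
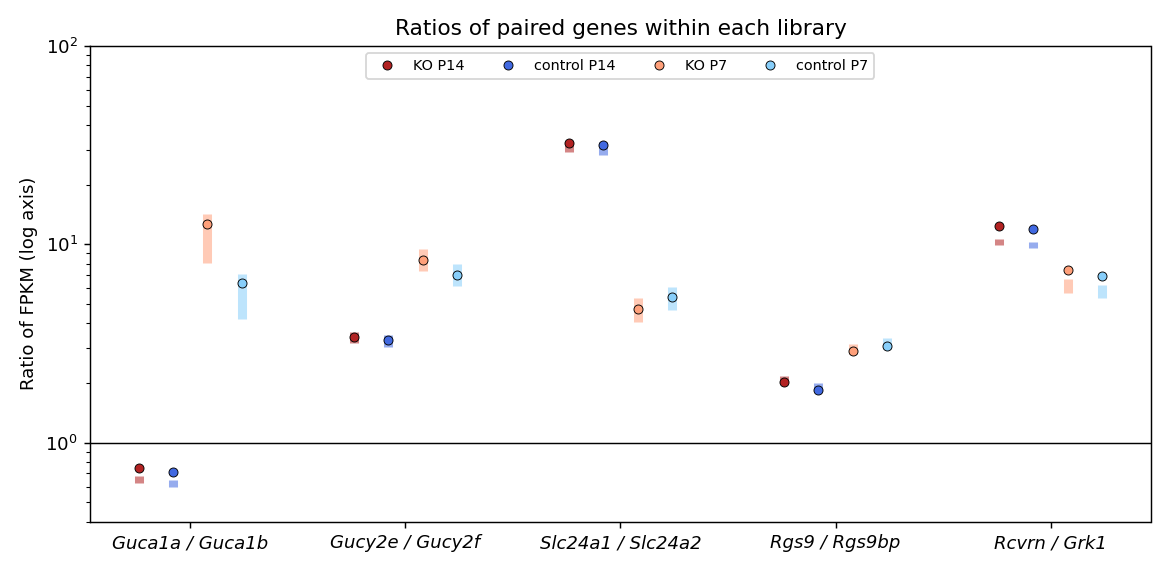
Ratio of the FPKM of paired genes within each library (log axis); points are ratios of the deposited levels, and shaded bars run from the lower bound of the first gene over the upper bound of the second to the reverse. The Guca1a to Guca1b ratio lay under 1 at P14, at 0.742 (KO) and 0.710 (control), and over 1 at P7, at 12.6 (KO) and 6.37 (control). The points lie above their bars for Rcvrn to Grk1 in every library and for Guca1a to Guca1b at P14. The Slc24a1 to Slc24a2 ratio was 32.3 (KO) and 31.5 (control) at P14, against 4.72 (KO) and 5.43 (control) at P7.

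Recoverin, the calcium sensor that holds back Grk1, was the most abundant of the 10 genes in every library, and the kinase was far lower. Rcvrn, on chromosome 11 at 67508828 to 67516857, was at 1730 (KO) and 1599 FPKM (control) at P14, where it ranked 10th among all genes in both, against 207 (KO) and 233 FPKM (control) at P7. Grk1, on chromosome 8 at 13405081 to 13421949, was at 140 (KO) and 134 FPKM (control) at P14, against 28.0 (KO) and 33.4 FPKM (control) at P7. The ratio of Rcvrn to Grk1 was 12.3 (KO) and 11.9 (control) at P14, against 7.41 (KO) and 6.96 (control) at P7. These ratios lie above the ranges taken at the bounds, 9.96 to 10.6 (KO) and 9.55 to 10.3 (control) at P14, and 5.70 to 6.67 (KO) and 5.38 to 6.24 (control) at P7, because the level of Rcvrn exceeds its own upper bound. In GENCODE M21, Glp2r, a glucagon-like peptide receptor gene on the other strand, overlaps Rcvrn, and without strand their reads could not be told apart there; the loci of the deposited tables, from which the levels come, do not overlap. Glp2r was far under Rcvrn, at 15.0 (KO) and 14.7 FPKM (control) at P14, and at 11.5 (KO) and 18.4 FPKM (control) at P7.

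Rgs9 was already high at P7. The gene, on chromosome 11 at 109086669 to 109159495, encodes the protein that speeds the hydrolysis of GTP by transducin. Its level was 157 (KO) and 152 FPKM (control) at P14, against 87.8 (KO) and 90.0 FPKM (control) at P7. Rgs9bp, on chromosome 7 at 36364013 to 36370601, encodes the anchor that ties Rgs9 to the disc membrane, and was at 77.9 (KO) and 82.1 FPKM (control) at P14, against 30.4 (KO) and 29.2 FPKM (control) at P7. At P7 Rgs9 stood at 55.9% of its P14 level in the KO and 59.4% in the control retina, the highest share of the 10 genes, whereas Guca1b stood at 0.545% and 0.865%. The anchor rose 2.56-fold in the KO and 2.81-fold in the control retina, and Rgs9 itself 1.79-fold and 1.68-fold.

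The exchangers, which carry calcium out of the outer segment, parted with age. Slc24a1, the exchanger of rods, on chromosome 9 at 64770668 to 64799414, was at 256 (KO) and 236 FPKM (control) at P14, against 15.1 (KO) and 17.6 FPKM (control) at P7. Slc24a2, an exchanger of cones, which also occurs in other neurons, lies on chromosome 4 at 86629030 to 86876444. Its level was 7.93 (KO) and 7.49 FPKM (control) at P14, against 3.19 (KO) and 3.24 FPKM (control) at P7. Slc24a1 rose 17.0-fold in the KO and 13.4-fold in the control retina, second in the set after Guca1b, and Slc24a2 rose 2.49-fold and 2.31-fold.

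The order of the levels was the same in both P14 libraries: Rcvrn, Guca1b, Guca1a, Slc24a1, Rgs9, Grk1, Rgs9bp, Gucy2e, Gucy2f and Slc24a2, with no overlap of bounds between neighbours. At P7 it was Rcvrn, Rgs9, Guca1a, then Rgs9bp before Grk1 in the KO library but after it in the control library, followed by Gucy2e, Slc24a1, Guca1b, Slc24a2 and Gucy2f in both. Among neighbours at P7, bounds overlapped for no pair in the KO library and, in the control library, for Guca1a with Grk1 and for Slc24a2 with Gucy2f.

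Bounds were higher at P14 for 10 of 10 genes in each genotype, against 29.0% of 13048 tested genes in the KO and 27.6% of 13117 in the control retina. At least 2-fold higher were 9 of the 10, all but Rgs9, against 7.73% (KO) and 7.09% (control) of tested genes. The median log2 difference of the 10 genes was 2.25 in the KO and 2.06 in the control retina, where all tested genes had medians of -0.09 and -0.08. An additive limma fit of genotype and age over the 4 libraries called the age term of all 10 genes, with Benjamini-Hochberg adjusted p from 1.66e-12 for Guca1b to 3.07e-06 for Slc24a2. With no filter on low values the limma adjusted p ran from 0.00166 to 0.00404, the highest of the settings tried. The fitted age change, on the log2(FPKM + 1) scale, ran from 0.79 ± 0.07 for Rgs9 to 6.96 ± 0.11 for Guca1b (SE). The fit called 71.3% of 12934 tested genes, and 30.7% of tested genes as higher, so that a call alone does not set these genes apart. It has 1 residual degree of freedom and shares the spread across genes. With 1 library per group, its p-values do not measure the spread between animals.

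**Figure D3:**
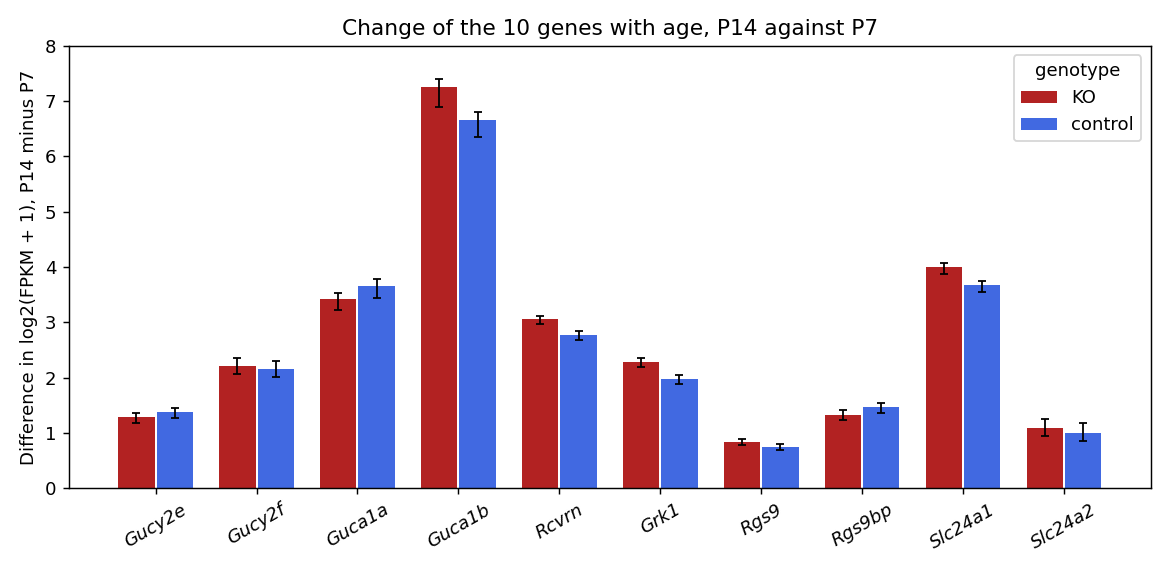
Difference in log2(FPKM + 1), P14 minus P7, for each gene in KO and control retinas; error bars run between the differences at the bounds. All 10 genes rose, from 0.83 (KO) and 0.75 (control) for Rgs9 to 7.25 (KO) and 6.67 (control) for Guca1b.

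Other photoreceptor genes give a measure for this increase. All 9 genes of rod transduction were higher at P14 beyond counting error in both genotypes, with a median log2 difference of 1.85 in the KO and 1.57 in the control retina. Gnat1, the rod transducin subunit, was at 5236 (KO) and 4979 FPKM (control) at P14, against 107 (KO) and 130 FPKM (control) at P7. Cone transduction genes had medians of 0.52 in the KO and 0.70 in the control retina, with 6 of 9 higher and Gnb3, the cone transducin beta subunit, lower in both. Among 14 other recovery and calcium genes, 11 in the KO and 12 in the control retina were higher, and 1, the calcium pump gene Atp2b1, was lower. Cabp4, a regulator of the photoreceptor calcium channel, was the furthest up of these, at 109 (KO) and 113 FPKM (control) at P14, against 12.7 (KO) and 13.5 FPKM (control) at P7.

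Relatives of the 10 genes that serve other cells had smaller median changes. Of 6 relatives of Rgs9 and their binding partners, 5 were higher at P14 in each genotype (medians 1.20 in the KO and 1.27 in the control retina). Of 6 relatives of recoverin 5 were higher in each genotype (0.99 and 0.88), led by Hpcal4 at 25.3 (KO) and 33.7 FPKM (control) at P14, against 7.06 (KO) and 8.42 FPKM (control) at P7. Other receptor kinases had medians of 0.07 over 4 tested genes in the KO and 0.11 over 5 in the control retina. Of 7 other guanylate cyclase genes 3 reached 1 FPKM, and Gucy2d, a cyclase of olfactory neurons in the mouse, was listed at 0 in all but the control P14 library, where it was at 0.0154 FPKM.

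The genes with levels closest to the median profile of the set over the 4 libraries, by Euclidean distance of centred log2(FPKM + 1) among 9216 genes averaging at least 5 FPKM, were Kcnip2 (0.017), Kcng4 (0.094), Impact (0.11), Lrrc67 (0.13), Cabp2 (0.13) and Cyp2d22 (0.14). Kcnip2 encodes a calcium-binding protein that interacts with potassium channels, and was at 16.8 (KO) and 16.7 FPKM (control) at P14, against 2.76 (KO) and 3.25 FPKM (control) at P7. Of the set itself, Grk1 and Gucy2f lay closest to the median profile (0.071 each) and Guca1b furthest (4.81). With 4 libraries this is a description of likeness only.

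At P7 the 10 genes did not differ between the genotypes in 1 direction. Of the 10 genes 4 were lower in KO beyond counting error, Guca1b, Grk1, Slc24a1 and Rcvrn, 1 was higher, Guca1a, and 5 had overlapping bounds. Among 12669 tested genes 6.1% were lower and 7.34% higher in this way, 13.4% in all. Guca1b was at 69.1% of the control level (log2 difference -0.46), Grk1 at 83.6% (-0.25), Slc24a1 at 85.6% (-0.21) and Rcvrn at 89.0% (-0.17). These 4 genes act in different steps of recovery. The bounds of Guca1b, 3.75 to 5.59 FPKM (KO) and 5.61 to 7.75 FPKM (control), were barely apart, and they overlapped with libraries scaled to their median gene. Guca1a was at 137% of the control level (0.44), with bounds of 44.9 to 53.2 FPKM (KO) and 32.7 to 39.7 FPKM (control). By log2 difference Guca1a lay at percentile 99.1 of tested genes and Guca1b at 1.37. The others of the set lay between 7.46 (Grk1) and 64.1 (Rgs9bp).

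Gucy2e, Gucy2f, Rgs9, Rgs9bp and Slc24a2 had overlapping bounds at P7. Their log2 differences were 0.06, -0.14, -0.04, 0.06 and -0.02, in that order. The median of the 10 genes was -0.09, beside 0.01 for all tested genes. None of the 10 differed by 1.5-fold, as 0.379% of tested genes did upwards and 0.624% downwards. Of 7 rod markers 1 was higher and 2 lower beyond counting error (median -0.04). Of 8 cone markers 4 were higher and 0 lower (median 0.25), with a summed level of 295 (KO) and 228 FPKM (control). Guca1a is expressed in cones as well as rods, and Guca1b mainly in rods; the part of the cone markers in the difference of Guca1a was not tested.

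At P14 most of the 10 genes were slightly higher in the KO retina. Beyond counting error 6 were higher, Guca1a, Guca1b, Slc24a1, Rcvrn, Grk1 and Rgs9, 1 was lower, Rgs9bp, and Gucy2e, Gucy2f and Slc24a2 had overlapping bounds. Among 12813 tested genes 7.45% were higher and 8.25% lower in this way, 15.7% in all. The differences were small, at 115% of the control level for Guca1a (log2 difference 0.20), 110% for Guca1b (0.13), 108% for Slc24a1 (0.12) and Rcvrn (0.11), 105% for Grk1 (0.06) and 104% for Rgs9 (0.05). None reached 1.5-fold, as 0.453% of tested genes did upwards and 1.02% downwards. By size the 6 higher genes lay only at percentiles 61.1 (Rgs9) to 87.8 (Guca1a) of tested genes. The bounds of the 10 genes lay within 1.41% to 4.99% of the middle in the KO and 1.64% to 5.98% in the control library. Differences of a few percent could thus count as beyond counting error. The bounds of Grk1 and of Rgs9 overlapped on a TPM scale and with libraries scaled to their median gene, and Gucy2f became lower on the TPM scale.

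**Figure D4:**
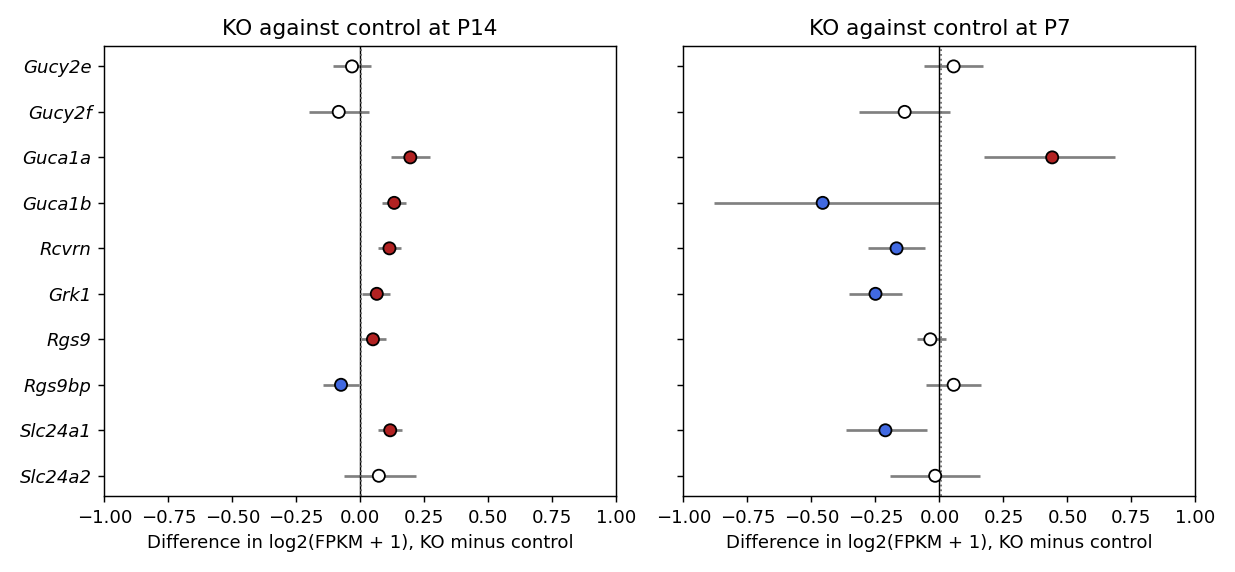
Difference in log2(FPKM + 1), KO minus control, for each gene at P14 (left) and P7 (right); points are red or blue where the KO library was higher or lower with bounds apart and open where bounds overlapped, and lines run between the differences at the bounds. The dotted line, near 0, is the median of all tested genes; Guca1b, Rcvrn, Grk1 and Slc24a1 lie right of 0 at P14 and left of 0 at P7.

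Rgs9bp, at 94.9% of the control level (-0.07), went the other way from Rgs9 at P14. The median log2 difference of the 10 genes was 0.07, beside 0.00 for all tested genes. Rod markers were higher by a like amount, with a median of 0.09 and bounds that were higher for 5 of 7 and lower for 0. Relative to that median, the median of the 10 genes turned to -0.020. Of 9 rod transduction genes 5 were higher and 2 lower (median 0.05), led by Pde6g, the inhibitory subunit of the rod phosphodiesterase, at 3374 (KO) and 2728 FPKM (control). Of 8 cone markers 2 were higher and 3 lower (median -0.11), with the cone arrestin gene Arr3 at 26.2 (KO) and 40.9 FPKM (control).

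Other recovery and calcium genes differed in both directions at P14. Gnb5, the partner that Rgs9 needs for stability, was at 473 (KO) and 383 FPKM (control) at P14 (0.30), and at 128 (KO) and 141 FPKM (control) at P7 (-0.14). Rd3, which acts in the transport of the cyclases to the outer segment, was at 89.2 (KO) and 74.2 FPKM (control) at P14 (0.26). Sag, the rod arrestin gene, was higher at both ages, at 2592 (KO) and 2404 FPKM (control) at P14 and at 1198 (KO) and 1045 FPKM (control) at P7. Cacna1f, the calcium channel gene of the photoreceptor terminal, was lower at both, at 11.5 (KO) and 18.6 FPKM (control) at P14 and at 8.13 (KO) and 9.66 FPKM (control) at P7. Of the 14 other recovery and calcium genes, 4 were higher and 5 lower at P14, and 2 higher and 2 lower at P7.

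The genotype difference thus turned with age for Guca1b, Rcvrn, Grk1 and Slc24a1, higher in KO at P14 and lower at P7 beyond counting error, a pattern counted after the values were seen. This held for 4 of the 10 genes and for 0.483% of 12223 genes tested at both ages, 59 in all. On a TPM scale it held for 3 of the 10 genes, without Grk1, and 51 genes in all; with scaling to the median gene it held for 2, Rcvrn and Slc24a1, and 45 in all. As deposited, the rod gene Gnat1, the Rgs9 partner Gnb5 and the Mueller glia gene Glul turned in the same way beyond counting error. Glul was at 1190 (KO) and 1124 FPKM (control) at P14, and at 169 (KO) and 188 FPKM (control) at P7. The comparisons at P14 and P7 share no library, but each rests on 1 library per group. Guca1a was higher at both ages, as were 1.5% of genes. The change with age was larger in the KO than in the control retina for 7 of the 10 genes, all but Guca1a, Gucy2e and Rgs9bp, and for 51% of all genes, with medians of the difference of 0.09 and 0.01.

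The genotype term of the limma fit called 0 of the 10 genes, against 0.24% of 12934 genes. Of the 12934 genes 1182 had an unadjusted limma p below 0.05, among them 1 of the 10. That gene was Guca1a, with a difference of 0.32 ± 0.08 (log2, SE) and an adjusted p of 0.165, higher in KO at 2 of 2 ages. The smallest adjusted p of the 10 genes ran from 0.202 to 0.757 under the other settings tried. For Guca1b, Rcvrn, Grk1 and Slc24a1 the opposite signs at the ages enter this fit as residual spread, and their fitted differences ran from -0.16 to -0.03 with limma adjusted p from 0.718 to 0.969.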

How the data were processed

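Each library has a table in which the authors deposited, per gene locus, the level in FPKM with a lower and an upper bound, per the file headers. The submitters' processing notes name CASAVA 1.8.2, TopHat2 2.0.8b, Cufflinks 2.1.1 and the mm9 build; options and annotation were not stated. Per the labels' protocols, single-end reads of 36 bases were made from randomly primed, PCR-amplified cDNA, so the bounds cover counting error only. Only 25.7% to 28.5% of the loci examined had an implied fragment number that was whole to within 0.1, so no count test was run.

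Symbols at several loci (251) were summed, 16 symbols with failed values left out, and 740 small RNA genes and loci under 300 bases set aside. Genes reaching 1 FPKM in either library were compared as log2(FPKM + 1), a scale that shrinks the changes of low genes. Deposited levels exceeded their own upper bound at 1809 to 2243 loci per library, so overlap was judged from bounds alone. Genotype and age were fitted with limma 3.58.1 (R 4.3.3), with a variance trend, on genes reaching 1 FPKM in 2 or more libraries. The fit was tested on simulated data, where unchanged genes made up more of its calls than the nominal 5%; its calls may hold more false ones than stated.

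All 10 members are named. From each list up to 4 genes per comparison were named, by size among those with bounds apart, with the 6 genes closest in profile; a few genes were added after their values were seen. The members and lists were chosen with earlier results of these data known.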

Additional observations from a re-analysis of the deposited data

Results flagged for a closer look

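For 4 of the 10 genes the KO library was higher than the control library at P14 and lower at P7, each time with bounds apart. The same held for 0.483% of 12223 genes tested at both ages. This pattern was counted after the values were seen. The log2 difference at P14 minus that at P7 was 0.59 for Guca1b, 0.28 for Rcvrn, 0.31 for Grk1 and 0.33 for Slc24a1. The difference between the ages was not tested, since each rests on 1 library per group. Rcvrn and Slc24a1 had bounds apart in these directions under all 3 scalings tried, Guca1b under 2 and Grk1 under 1. As deposited, Gnat1, Gnb5 and Glul, which are not among the 10 genes, turned in the same way.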

How the results depend on the processing

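No paired analysis was possible because each group has 1 library and the labels give no replicate numbers, and leaving out a library leaves no residual degree of freedom. All 10 genes stayed called for age, and 0 for genotype, under the 5 alternatives of the limma fit. The number of all genes called for genotype was 31, but 17 with no variance trend and 0 with no filter on low values, where 1130 had an unadjusted p below 0.05. The median age change was 2.25 in the KO and 2.06 in the control retina. It was 2.44 and 2.23 with a pseudocount of 0.1 FPKM, 1.78 and 1.64 with 5 FPKM, 2.38 and 2.22 with libraries scaled to their median gene, and 1.02 and 0.86 relative to rod markers. Scaling to the median gene moved the median age change of all genes by 0.13 in the KO and 0.16 in the control retina. At P14 the median genotype difference of 0.07 turned to -0.020 relative to rod markers. The count of genes higher in KO at P14 and lower at P7 was 4 as deposited and 2 with scaling to the median gene, an alternative chosen after seeing the data. The causes were not tested. Another 34 values stayed within their error or within 1.5 times the count. Bounds within 19.7% of the middle at worst, for Guca1b in the KO P7 library, limit what can be seen at P7.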

Other observations

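The subunits of the soluble guanylate cyclase, which answers nitric oxide, were both lower in KO at each age beyond counting error. With each age taken alone, 8.25% of tested genes were lower at P14 and 6.1% at P7. The share lower at both ages is not given here. Gucy1a3, its alpha subunit gene, was at 44.4 (KO) and 56.0 FPKM (control) at P14, and at 25.9 (KO) and 35.8 FPKM (control) at P7. Gucy1b3, its beta subunit gene, was at 41.3 (KO) and 51.3 FPKM (control) at P14, and at 31.2 (KO) and 35.6 FPKM (control) at P7. The genotype term of the limma fit gave adjusted p of 0.105 for Gucy1a3 and 0.357 for Gucy1b3, so neither was called. Some markers of inner retinal neurons were lower beside them: the amacrine gene Gad1 at both ages and Slc6a9 at P7, and the bipolar genes Grm6 and Trpm1 at both ages. Their log2 differences were -0.16 at P14 and -0.19 at P7 for Gad1, -0.40 at P7 for Slc6a9, -0.26 at each age for Grm6, and -0.23 at P14 and -0.20 at P7 for Trpm1. Other markers did not go that way. Of 6 bipolar cell markers 4 were lower at P14, but at P7 2 were lower and 2 higher, Otx2 (0.15) and Prkca (0.09). The amacrine gene Gad2 had overlapping bounds at both ages. Of 4 ganglion cell markers 4 were higher in KO at P14 and 3 at P7. The part of these cells in the difference of the cyclase subunits was not tested.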
